A study of Mus musculus with 12 samples.

Results

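The 45 genes described here encode the proteins that mark, license and fire DNA replication origins, unwind and copy DNA at the fork, and supply its deoxynucleotides. They were chosen by gene symbol from this function and not by their values, though with earlier results of these data known. All 45 were found in a table of 55385 genes, once each. RNA-seq measured them in 12 libraries of mouse spermatogonia in 6 groups of 2. Wild-type (WT) C57BL/6 adults of 2 to 3 months gave undifferentiated (Aundiff) and differentiating (Adiff) spermatogonia, sorted as E-Cadherin+ CD9high KIT- and E-Cadherin+ CD9medium KIT+ cells. The other 4 groups were Aundiff, sorted by the same Aundiff gate, from C57BL/6 X FVB/NJ males labelled PRC1ctrl (Ring1-/-; Rnf2 F/+; Ddx4-Cre) or PRC1cKO (Ring1-/-; Rnf2 F/-; Ddx4-Cre), either untreated at 2 months or given Win18,446. Ring1 was therefore deleted in all 8 of these libraries, and only Rnf2, which encodes RNF2, a catalytic subunit of Polycomb repressive complex 1 (PRC1), separates the 2 labels. Ddx4-Cre is driven in germ cells. Win18,446 blocks ALDH1A2, an enzyme of retinoic acid synthesis, and was injected under the skin daily from 1 month of age for about 30 days (40 µg/µl in 50 µl DMSO). Sorted cells were pooled into a replicate, so p-values measure the spread between 2 pools a group.

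The steps of replication follow each other in a fixed order. The origin recognition complex (ORC1 to ORC6) binds origins, CDC6 and CDT1 load the MCM2 to MCM7 helicase there in G1, and geminin (Gmnn) binds CDT1 so that loading does not happen again in the same cycle. CDC7 with DBF4 and the cyclin-dependent kinases, which CDC25A activates, then turn the loaded helicase into the CDC45-MCM-GINS complex, and DNA polymerases, the PCNA clamp, its loader RFC, the nuclease FEN1, the ligase LIG1 and the single-strand binding protein RPA copy the DNA behind it. Many of these genes are transcribed in late G1 and S phase under E2F factors. In the adult testis, Aundiff are the slowly dividing population that holds the stem cells, and Adiff divide faster on the way to meiosis.

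The promoters of 37 members were in RefSeq (GRCm38.p6), each as 250 bases before the start site and 50 bases from it, in 45 windows. Mcm4, Gmnn, Gins1, Gins2, Gins4, Prim2, Pole and Rfc2 had no entry. Any of 4 E2F words (TTTGGCGC, TTTCCCGC, TTTCGCGC and TTTGCCGC, on either strand) was found in 14 of the 37 (37.8%), against 2.60% of the 27025 genes with an entry. By windows, 31.1% of the members' and 2.26% of all 32851 held such a word. The NF-Y word CCAAT was in 23 of 37 members (62.2%, against 41.1% of all genes). The CHR words TTTGAA and TTCGAA were in 8 (21.6%, against 21.7%). A match is a stretch of letters and not a measured binding site. The stretches from 170 bases before the start site to 30 bases from it are given for 6 members whose RNA rose in WT Adiff, 5 with E2F words, in capitals, and Rrm2, which had the largest change and no E2F word in its window.
Cdc6: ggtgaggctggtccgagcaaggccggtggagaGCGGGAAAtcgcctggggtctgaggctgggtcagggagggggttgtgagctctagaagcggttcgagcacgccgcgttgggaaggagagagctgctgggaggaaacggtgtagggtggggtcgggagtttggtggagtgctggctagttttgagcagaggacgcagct
Cdc25a: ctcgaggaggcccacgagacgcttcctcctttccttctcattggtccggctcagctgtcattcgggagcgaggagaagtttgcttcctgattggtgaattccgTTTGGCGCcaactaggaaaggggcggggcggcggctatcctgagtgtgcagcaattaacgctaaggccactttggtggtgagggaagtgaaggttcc
Orc1: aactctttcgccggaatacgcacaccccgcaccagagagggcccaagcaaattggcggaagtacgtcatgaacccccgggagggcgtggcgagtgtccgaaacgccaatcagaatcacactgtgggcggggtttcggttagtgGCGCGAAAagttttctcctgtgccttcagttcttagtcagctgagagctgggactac
Mcm5: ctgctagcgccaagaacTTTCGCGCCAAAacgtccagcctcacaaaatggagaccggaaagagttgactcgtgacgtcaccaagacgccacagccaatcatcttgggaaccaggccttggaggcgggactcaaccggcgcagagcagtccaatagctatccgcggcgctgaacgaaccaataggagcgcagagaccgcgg
Mcm6: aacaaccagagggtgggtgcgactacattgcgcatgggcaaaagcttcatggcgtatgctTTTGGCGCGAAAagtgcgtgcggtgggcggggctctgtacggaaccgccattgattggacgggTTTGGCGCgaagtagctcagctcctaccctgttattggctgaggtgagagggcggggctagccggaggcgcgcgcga
Rrm2: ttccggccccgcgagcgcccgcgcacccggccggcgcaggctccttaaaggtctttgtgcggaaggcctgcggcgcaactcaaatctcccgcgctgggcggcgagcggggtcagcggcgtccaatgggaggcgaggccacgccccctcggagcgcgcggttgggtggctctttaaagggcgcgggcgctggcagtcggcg
They lie at chr11:98907981-98908180 (+) for Cdc6, chr9:109875409-109875608 (+) for Cdc25a, chr4:108579284-108579483 (+) for Orc1, chr8:75109339-75109538 (+) for Mcm5, chr1:128359676-128359875 (-) for Mcm6 and chr12:24708084-24708283 (+) for Rrm2. With the start site as 0, the word in Cdc6 began at -138, that in Cdc25a at -67 and that in Orc1 at -27. Mcm5 held a pair of words on opposite strands that overlap by 4 bases, starting at -153 and -149. Mcm6 held 3 words, at -110, -106 and -47, the first pair overlapping in the same way. The Rrm2 window held a CCAAT at -50.

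The values are TPM (a transcript's share of the library's RNA, corrected for transcript length), so levels of different genes can be set side by side, while the number of reads behind a value is unknown. The 45 genes took 0.345% of the TPM in each WT Aundiff library, 0.576% and 0.573% in WT Adiff, and 0.288% to 0.519% in the others. All 45 were at 1 TPM or more in every library. In WT Aundiff, group means ran from 6.93 TPM for Gins3, a subunit of GINS, to 279 TPM for Mcm7, with a median of 58.2.

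A few features of the libraries touch the results. The untreated PRC1ctrl and PRC1cKO libraries were made from fewer cells with a Smart-Seq2 low-input kit, and the other 8 with a TruSeq stranded kit, so the kit and the group cannot be told apart between them, and tests of 2 groups were made within a kit only. Ring1 was at 0.03 to 0.25 TPM in the 8 PRC1 libraries and 8.61 to 19.9 TPM in WT. Rnf2 was not lower under the PRC1cKO label. It stood at 28.3 and 47.6 TPM in untreated PRC1ctrl and 56.7 and 67.5 TPM in untreated PRC1cKO, and at 78.1 and 67.2 TPM in Win18,446-treated PRC1ctrl and 86.2 and 93.1 TPM in PRC1cKO. The file gives 1 value per gene, so loss of the floxed part was not checked, and directions below are between libraries labelled PRC1ctrl and PRC1cKO. The 8 spermatid markers summed to 772 and 1814 TPM in untreated PRC1ctrl against 59.0 and 65.1 TPM in PRC1cKO, though the gate selects spermatogonia. In WT they summed to 819 to 895 TPM in Aundiff and 559 to 743 TPM in Adiff. Germ cell markers were at 1 TPM or more in every group. The 12 undifferentiated markers summed to 911 to 1186 TPM in untreated PRC1ctrl against 421 to 513 TPM in PRC1cKO, and to 944 to 1052 TPM against 726 to 829 TPM under Win18,446. Most of the untreated sums came from Sall4, Nanos3 and Lin28a. Sall4 was at 517 and 704 TPM in PRC1ctrl and 266 and 314 TPM in PRC1cKO. Nanos3 stood at 286 and 349 TPM against 92.4 and 80.6 TPM, and Lin28a at 79.6 and 83.1 TPM against 34.2 and 53.2 TPM. Gfra1, Zbtb16, Etv5, Bcl6b, Nanos2, Ret and Neurog3 overlapped between the untreated labels, and Id4 and Eomes were lower in PRC1cKO, at low TPM. In sorted bulk RNA, more cells of a type and more RNA per cell cannot be told apart.

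The first comparison asked which replication genes change as Aundiff become Adiff in the WT testis. Of the 45 genes, 26 were higher in Adiff at an adjusted p below 0.05 and none was lower, where 23.4% of all 15470 genes tested were higher and 14.7% lower. By unadjusted p below 0.05, 34 of the 45 passed, as did 49.1% of all genes. Fold changes are on the log2(TPM + 1) scale and were tested with limma, with Benjamini-Hochberg adjustment over all genes tested. Of the 26, 12 also rose by more than 1 on the log2 scale (11.1% of all genes), and none fell by as much (9.24%). The median of the members was 0.69 and that of all genes 0.15. Because that shift of all genes is large, a fit on values rescaled to a common median (median-of-ratios scaling) was set beside it. There 20 members were higher (15.9% of all genes) and 2 lower (18.3%), with a median of 0.53, and among all genes the higher share of the calls went from 61.4% to 46.6%. As tested, 43 of 45 had a fold change above 0, and 40 did after rescaling. Both Adiff libraries were above both Aundiff libraries in 39 members (43.4% of all genes) and below them in 2 (28.7%).

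**Figure D1:**
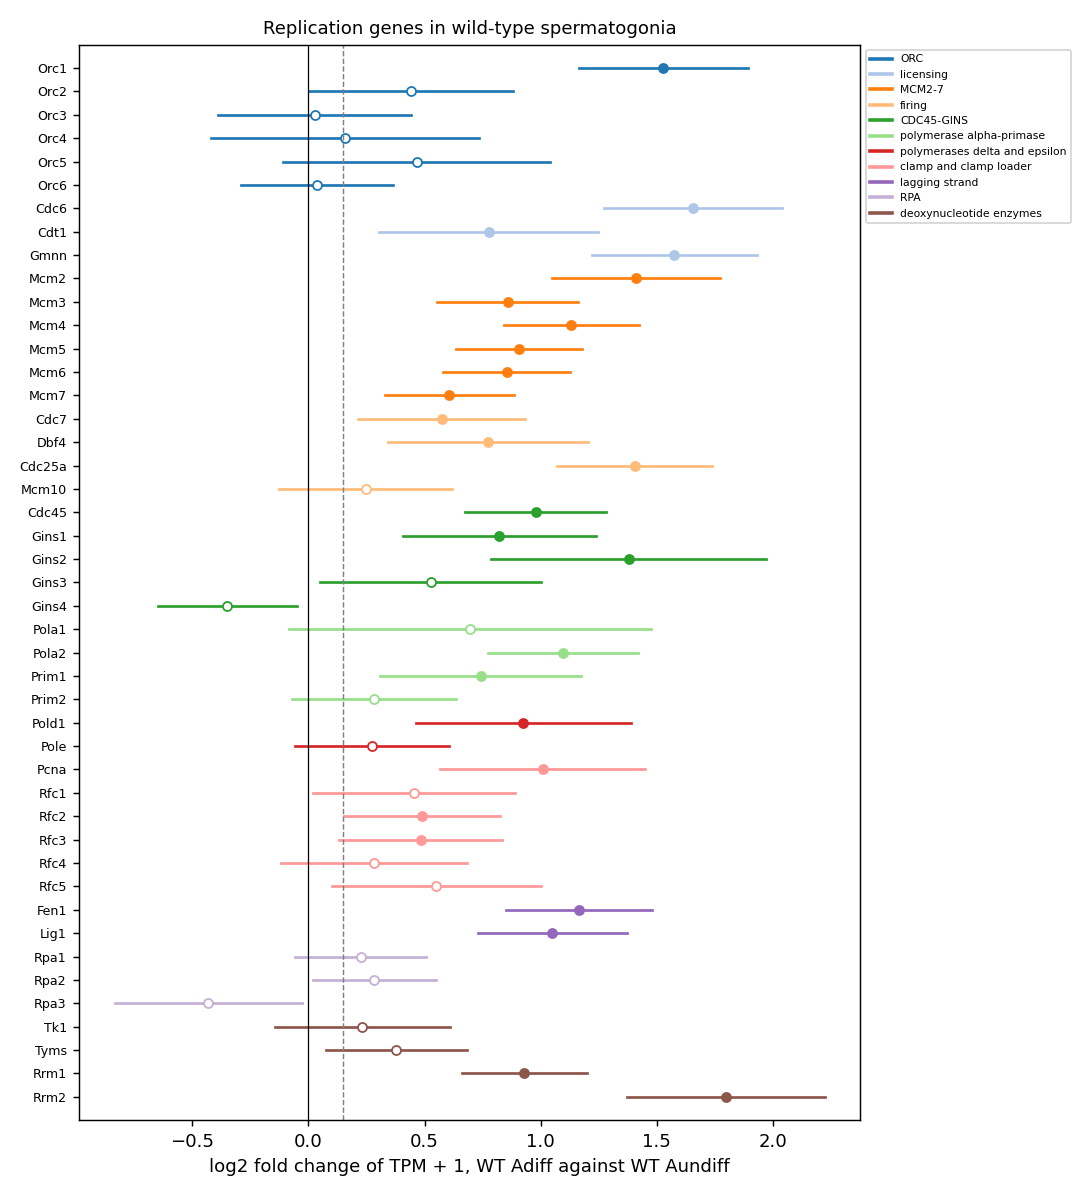
Each row is a replication gene, coloured by role, with its log2 fold change of TPM + 1 (WT Adiff against WT Aundiff) and 95% confidence interval, 2 libraries a group. Filled points passed an adjusted p of 0.05, the dashed line is the median of all genes tested (0.15), and only Gins4 and Rpa3 lie left of 0.

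All 3 genes that control loading of the helicase rose. Cdc6, the ATPase that brings MCM to ORC, was at 16.1 and 14.5 TPM in Aundiff and 53.2 and 47.5 TPM in Adiff, a log2 fold change of 1.66 ± 0.16 (SE; adjusted p = 0.0015, limma). Gmnn, the inhibitor of reloading, stood at 87.7 and 80.8 TPM and then at 282 and 227 TPM (1.58 ± 0.15, adjusted p = 0.0014, limma). The groups did not overlap in either gene. Cdt1, the loading partner that geminin binds, went from 77.3 and 97.9 TPM to 128 and 174 TPM (0.78 ± 0.20, adjusted p = 0.024, limma). It did not pass after rescaling (adjusted p = 0.059, limma). The Cdt1 to Gmnn ratio of TPM was 0.88 and 1.21 in Aundiff and 0.46 and 0.77 in Adiff, so Gmnn was above Cdt1 in 1 of 2 Aundiff libraries and in both Adiff libraries. Of the 6 ORC subunits, all had fold changes above 0 as tested, 3 did after rescaling, and 1 passed. Orc1, the subunit that is regulated over the cell cycle, rose from 29.3 and 24.6 TPM to 77.8 and 80.8 TPM (1.53 ± 0.15, adjusted p = 0.0016, limma). Orc2 to Orc6 had fold changes between 0.03 and 0.47 and did not pass. Orc6 was at 93.1 and 82.0 TPM in Aundiff and 93.6 and 86.1 TPM in Adiff, an overlap of the groups, with a 95% interval of -0.29 to 0.37. Exons of Orc1 share 10.8% of their bases, and those of Orc2 29.8%, with genes on the other strand.

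All 6 helicase subunits rose (0.61 to 1.41). Mcm2 changed most, from 129 and 159.6 TPM to 357 and 412 TPM (1.41 ± 0.15, adjusted p = 0.0019, limma). Mcm4, the subunit with the lowest TPM of the 6 in every WT library, rose from 66.4 and 65.7 TPM to 144 and 149 TPM (1.13 ± 0.12, adjusted p = 0.0019, limma). Mcm7 had the highest level (264 and 294 TPM, then 424 and 427 TPM) and the smallest change (0.61 ± 0.12, adjusted p = 0.0098, limma). Mcm3, Mcm5 and Mcm6 fell between, at 0.86, 0.91 and 0.85. The ratio of the highest to the lowest subunit in a library was 3.98 and 4.48 in Aundiff and 2.96 and 2.87 in Adiff.

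Of the 4 firing genes, 3 rose. Cdc25a, the phosphatase that activates cyclin-dependent kinases, was at 32.3 and 29.9 TPM in Aundiff and 80.5 and 87.4 TPM in Adiff (1.41 ± 0.14, adjusted p = 0.0016, limma). Cdc7, the kinase that phosphorylates MCM, and Dbf4, its activator, rose by 0.57 and 0.77. Neither passed after rescaling (adjusted p = 0.081 and 0.056, limma). Mcm10, which acts with the assembled helicase, did not pass (0.25, adjusted p = 0.25, limma). Among CDC45 and GINS, Gins2 rose from 15.9 and 25.03 TPM to 47.6 and 60.2 TPM (1.38 ± 0.25, adjusted p = 0.0079, limma). Its exons share 67.3% of their bases with Gse1 on the other strand, and whether counting used strand is not given in the sources used here. Cdc45 rose by 0.98 and Gins1 by 0.82. Gins4 went the other way, at 149 and 134 TPM in Aundiff and 109.7 and 112 TPM in Adiff (-0.35, 95% interval -0.65 to -0.05, adjusted p = 0.068, limma). After rescaling it passed as lower (adjusted p = 0.0265, limma). Gins4 was the most abundant of the 4 GINS genes in both groups, and Gins3 the least.

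Among the fork genes, both lagging-strand genes rose. Fen1, the flap nuclease of Okazaki fragments, rose from 63.0 and 68.1 TPM to 141 and 156 TPM (1.16 ± 0.13, adjusted p = 0.0022, limma). Exons of Fen1 share 84.2% of their bases with Tmem258 and Gm10143 on the other strand. Lig1, which seals those fragments, rose by 1.05 and Pcna, the sliding clamp, by 1.01. Pola2, the regulatory subunit of polymerase alpha, rose from 35.2 and 37.8 TPM to 78.0 and 80.5 TPM (1.10 ± 0.13, adjusted p = 0.0026, limma). Prim1, the primase (0.74), and Pold1, the catalytic subunit of polymerase delta (0.93), rose, and Pola1, Prim2 and Pole did not pass. The 2 Pola1 libraries of Adiff differed, at 36.1 and 18.4 TPM. Of the 5 clamp loader genes, Rfc2 and Rfc3 passed (0.49 and 0.48). In fits that left out 1 library these ran from 0.37 to 0.61 and from 0.38 to 0.58. None of the 3 RPA genes passed. Rpa3 had the lowest fold change of all members, at 58.1 and 45.7 TPM in Aundiff and 36.9 and 39.1 TPM in Adiff (-0.43, adjusted p = 0.085, limma), and passed after rescaling (adjusted p = 0.046, limma).

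Of the deoxynucleotide enzymes, both subunits of ribonucleotide reductase rose. Rrm2, the small subunit that is made in S phase, was at 11.9 and 14.5 TPM in Aundiff and 51.5 and 44.95 TPM in Adiff, the largest change of the 45 (1.80 ± 0.18, adjusted p = 0.0016, limma). Rrm1, the large subunit, rose from 141 and 144 TPM to 273 and 272 TPM (0.93). The Rrm1 to Rrm2 ratio of TPM went from 11.9 and 9.94 to 5.30 and 6.05. Tyms, thymidylate synthase, and Tk1, thymidine kinase, did not pass (0.38 and 0.23). Of the members that rose, 21 had a promoter entry and 11 of these held an E2F word (52.4%), against 3 of 16 (18.8%) of those that did not pass. This was counted with no test.

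**Figure D2:**
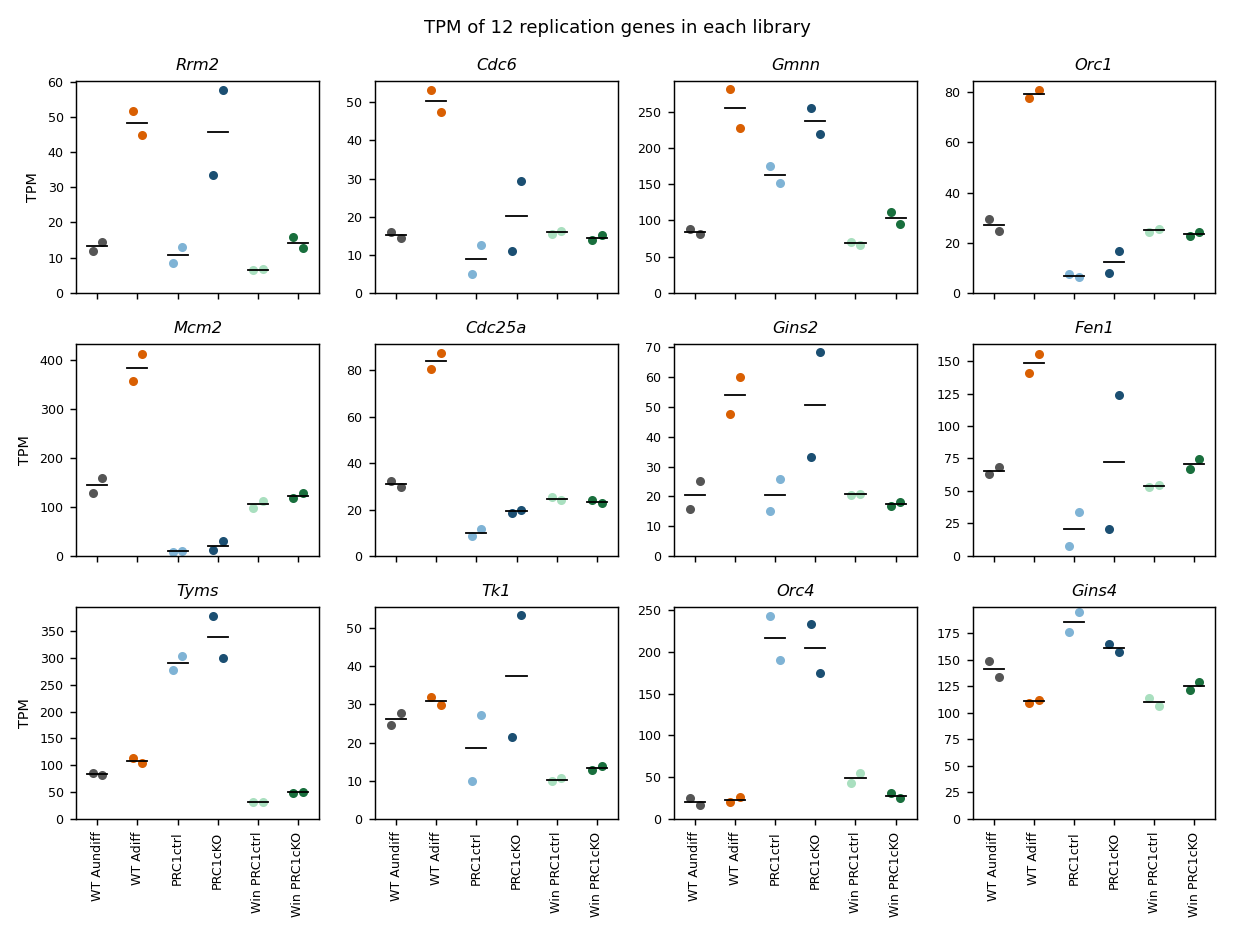
TPM of 12 members in each of the 12 libraries, 1 panel a gene, points for libraries and lines for the mean of 2, y axes from 0. Rrm2 to Fen1 are highest in WT Adiff among the TruSeq libraries, while the untreated PRC1ctrl and PRC1cKO points come from another kit and can be compared with each other only.

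Genes of 3 related lists were counted alongside, where 23.4% of all genes were higher and 14.7% lower. Of 38 other replisome and licensing genes, 25 rose and 3 fell. Donson, a replisome scaffold for firing, rose by 2.22, Pold2 by 1.67 and Uhrf1 by 1.43. Pold4, an accessory subunit of polymerase delta, fell by 2.43, from 5.41 and 4.99 TPM to 0.00 and 0.33 TPM. Of 30 deoxynucleotide supply genes 13 rose and 3 fell. Dctd, dCMP deaminase, fell by 1.40 and Samhd1, which degrades dNTPs, by 1.28, and Nme2, a nucleoside diphosphate kinase, rose by 1.03. Of 18 E2F factors, pocket proteins and cyclin partners, 10 rose and 1 fell, with Ccne2 at 2.28, E2f8 at 2.16, E2f7 at 1.89 and E2f2 at 1.84. Their medians were 0.84, 0.30 and 0.71. After rescaling 20, 9 and 9 rose (15.9% of all genes) and 5, 5 and 3 fell (18.3%). Mki67, a marker of cycling cells, was at 7.02 and 6.73 TPM in Aundiff and 39.2 and 29.5 TPM in Adiff. Kit, which the gate selects on, was at 6.38 and 6.96 TPM against 247 and 245 TPM. The part of the share of cycling cells in these changes was not tested.

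The second comparison set untreated libraries labelled PRC1cKO against PRC1ctrl, 2 and 2, to ask whether loss of PRC1 changes Aundiff. No member passed in limma, where 0.222% of the 13953 genes tested were higher and 1.94% lower. At an unadjusted p below 0.05, 10 members passed, as did 14.2% of all genes. Their direction was mostly up, with 40 of 45 above 0 and a median of 0.75, against 0.22 for all genes. After rescaling the median was 0.48, and Rrm2 alone passed (adjusted p = 0.037, limma), where 0.559% of all genes were higher and 5.53% lower. The standard errors of members ran from 0.20 to 1.03, against 0.11 to 0.32 in the WT comparison, so the intervals were wider here.

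Rrm2 was at 8.6 and 13.1 TPM in PRC1ctrl and 33.5 and 57.6 TPM in PRC1cKO (1.95 ± 0.44, adjusted p = 0.11, limma). Its groups did not overlap. Prim1, the catalytic primase subunit, stood at 55.0 and 65.7 TPM and at 139.5 and 108 TPM (1.02 ± 0.29, adjusted p = 0.17, limma). Pola1, the catalytic subunit of polymerase alpha, stood at 23.2 and 36.7 TPM and at 65.0 and 74.9 TPM (1.23 ± 0.35, adjusted p = 0.19, limma). Pcna was at 258 and 307 TPM and at 460.4 and 415 TPM (0.63 ± 0.22, adjusted p = 0.28, limma), and Mcm3 at 105 and 98.7 TPM and at 160.2 and 167 TPM (0.68 ± 0.24, adjusted p = 0.28, limma). Each of these 5, the lowest p values of the comparison, had both PRC1cKO libraries above both PRC1ctrl libraries. In all, 25 members did so (27.5% of all genes) and 1, Gins4, was below in both (17.3%).

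Spread between replicates was wide in several members. Fen1 was at 7.26 and 33.8 TPM in PRC1ctrl and 20.7 and 124 TPM in PRC1cKO, which overlap (1.62 ± 1.03, adjusted p = 0.56, limma). Cdc6 was at 5.01 and 12.6 TPM and at 11.1 and 29.4 TPM, with overlap (1.08, 95% interval -0.54 to 2.70, adjusted p = 0.53, limma). Cdc25a was at 8.39 and 11.5 TPM and at 18.6 and 19.7 TPM, with no overlap (0.90, 95% interval -0.05 to 1.84, adjusted p = 0.38, limma). Replicate 2 was above replicate 1 in 35 of the 45 genes in PRC1ctrl and in 31 in PRC1cKO, by up to 2.52 on the log2 scale for Fen1 in PRC1cKO. Across the 45 genes the PRC1cKO difference correlated with transcript GC content (Pearson r = 0.59, n = 45 genes of the same 2 libraries), and the median fold change over members without PRC1cKO replicate 2 was 0.37. Mki67 stood at 5.59 and 3.43 TPM in PRC1ctrl and 15.5 and 11.3 TPM in PRC1cKO. The 8 differentiating markers summed to 297 to 399 TPM in PRC1ctrl and 677 to 875 TPM in PRC1cKO, the 6 Leydig markers to 1.01 to 1.24 TPM and 22.7 to 51.6 TPM, and the 8 macrophage markers to 10.7 to 122 TPM and 141 to 706 TPM. Most of the macrophage sum was Cd74, at 8.18 and 112 TPM in PRC1ctrl and 127 and 680 TPM in PRC1cKO. Cd68 and Lyz2 were also higher in both PRC1cKO libraries, and Mrc1 was lower. Adgre1, Csf1r, Cx3cr1 and C1qa were below 1 TPM under both labels, so the sum does not count macrophages. The part of other cells in the members' values was not tested. None of the 36, 28 and 16 tested genes of the 3 related lists passed.

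In these libraries the subunits of 1 complex lay far apart in TPM. The highest MCM subunit exceeded the lowest by 13.6 and 9.39 times in PRC1ctrl and by 14.0 and 5.49 times in PRC1cKO, with Mcm2 lowest and Mcm3 highest. In the 8 TruSeq libraries this ratio was 2.45 to 4.48. Orc4 was at 175 to 242 TPM and Orc1 at 6.29 to 16.6 TPM, a ratio of up to 32.9, where the ORC ratio was 3.17 to 6.67 in TruSeq libraries.

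**Figure D3:**
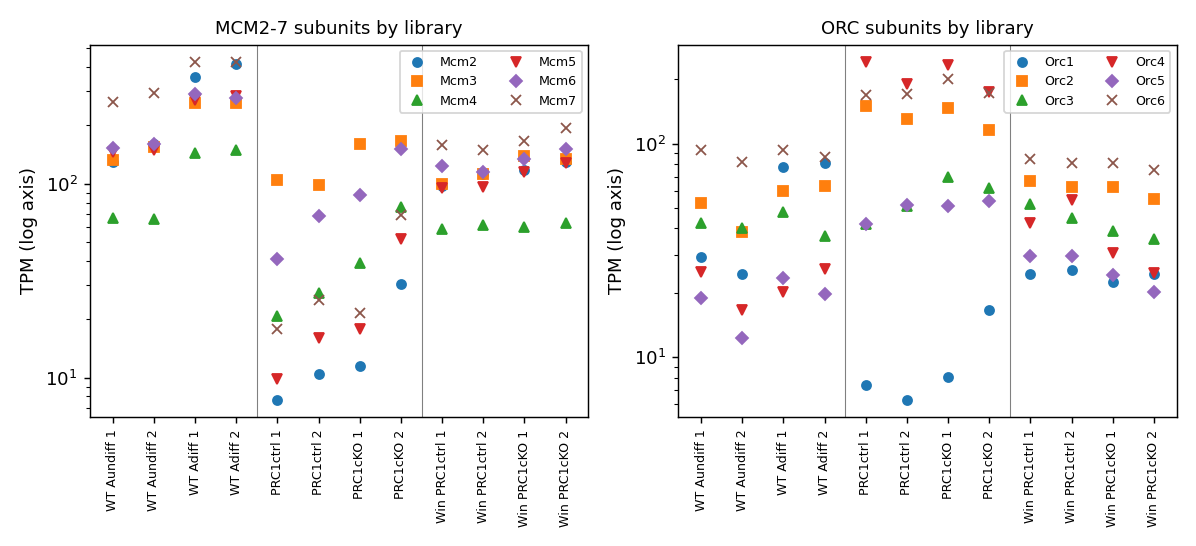
TPM on a log axis of the 6 MCM2-7 and 6 ORC genes in each of the 12 libraries, with grey lines between sets of libraries that share a kit and strain. The 4 untreated PRC1 libraries in the middle, made with the low-input kit, spread up to 14.0 times among MCM genes and 32.9 times among ORC genes.

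Next, within TruSeq libraries, Win18,446-treated PRC1cKO was set against PRC1ctrl to ask what the label changes when differentiation is blocked. Of the 45 members, 6 were higher and 5 lower, where 5.87% of the 16521 genes tested were higher and 26.7% lower. The median was 0.10 against -0.19 for all genes. After rescaling, 17 members were higher (13.5% of all genes) and 2 lower (18.9%), the median was 0.30 and the higher share of all calls went from 18.0% to 41.6%. With a correction of each library for transcript GC content, chosen after seeing the data, 22 were higher (17.6%) and 1 lower (19.4%). The split of members by direction thus depended on how the libraries were put on 1 scale, and a member's place relative to other genes is given by the rescaled values.

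Deoxynucleotide enzymes led the higher genes. Rrm2 was at 6.42 and 6.69 TPM in PRC1ctrl and 15.8 and 12.7 TPM in PRC1cKO (1.00 ± 0.16, adjusted p = 0.0058, limma), the only member past 1 on the log2 scale (1.27% of all genes), with none past -1 (10.9%). Tyms was at 32.1 and 32.2 TPM and then at 48.2 and 50.8 TPM (0.61 ± 0.11, adjusted p = 0.0095, limma). Gmnn was at 70.1 and 66.4 TPM and then at 112 and 95.7 TPM (0.59 ± 0.12, adjusted p = 0.013, limma). These 3 passed on both scales and their groups did not overlap. In fits that left out 1 library the fold change ran from 0.86 to 1.15 for Rrm2, 0.57 to 0.64 for Tyms and 0.48 to 0.70 for Gmnn. Such a fit leaves 1 library in a group, so calls are not counted in it. Prim1 stood at 29.7 and 26.6 TPM and at 39.6 and 41.0 TPM (0.50 ± 0.12, adjusted p = 0.023, limma). Fen1 stood at 53.2 and 54.3 TPM and at 67.1 and 74.3 TPM (0.39, adjusted p = 0.042, limma), and Mcm3 at 99.7 and 112 TPM and at 139 and 133 TPM (0.36, adjusted p = 0.0496, limma). Leaving out 1 library gave 0.32 to 0.46 for Fen1, 0.28 to 0.45 for Mcm3 and 0.43 to 0.58 for Prim1. Mcm2, Mcm5, Mcm6 and Mcm7 had fold changes of 0.23, 0.33, 0.25 and 0.22 and passed after rescaling only (adjusted p = 0.0105 to 0.0275, limma).

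The lower genes were an origin-binding subunit, both parts of the CDC7 kinase, a polymerase and a clamp loader. Orc4, a subunit of ORC, was at 42.6 and 54.5 TPM in PRC1ctrl and 30.6 and 24.8 TPM in PRC1cKO (-0.78 ± 0.17, adjusted p = 0.015, limma). Cdc7 was at 45.04 and 48.4 TPM and then at 30.6 and 30.2 TPM (-0.60 ± 0.12, adjusted p = 0.010, limma). Dbf4 was at 77.2 and 76.5 TPM and then at 56.2 and 52.7 TPM (-0.49 ± 0.11, adjusted p = 0.017, limma). Orc4 and Cdc7 passed on both scales, and Dbf4 did not pass after rescaling (adjusted p = 0.087, limma). Pole, the catalytic subunit of polymerase epsilon, was at 92.0 and 97.6 TPM and at 53.6 and 73.0 TPM (-0.59 ± 0.16, adjusted p = 0.033, limma). Rfc1, the large clamp loader subunit, was at 68.8 and 70.5 TPM and at 42.8 and 52.0 TPM (-0.55 ± 0.13, adjusted p = 0.021, limma). Neither passed after rescaling (adjusted p = 0.089 and 0.062, limma). Leaving out 1 library gave fold changes of -0.96 to -0.61 for Orc4, -0.65 to -0.55 for Cdc7 and -0.54 to -0.45 for Dbf4. The ranges were -0.81 to -0.37 for Pole and -0.69 to -0.41 for Rfc1. All 6 ORC subunits had fold changes below 0, of which Orc4 alone passed, and those of Orc1, Orc2 and Orc6 were above 0 after rescaling. Both PRC1cKO libraries were above both PRC1ctrl libraries in 19 members (20.1% of all genes) and below them in 14 (49.3%).

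Cdc6 and Cdc25a, which rose in WT Adiff, did not pass here. Cdc6 was at 15.6 and 16.3 TPM in PRC1ctrl and 13.8 and 15.1 TPM in PRC1cKO (-0.14, 95% interval -0.46 to 0.19, adjusted p = 0.48, limma). Cdc25a was at 25.3 and 24.2 TPM and at 23.9 and 22.9 TPM (-0.07, 95% interval -0.37 to 0.22, adjusted p = 0.69, limma). Both signs turned after rescaling (0.06 and 0.13). Orc1, at 24.4 and 25.6 TPM against 22.5 and 24.4 TPM, also did not pass (-0.09, 95% interval -0.39 to 0.21). These intervals lie below the changes of the same genes in WT Adiff, which were 1.66, 1.41 and 1.53 in other libraries.

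Of 38 other replisome and licensing genes, 2 rose and 8 fell in PRC1cKO, and 7 rose and 6 fell after rescaling. For this list and those below, 5.87% of all genes were higher and 26.7% lower, and 13.5% and 18.9% after rescaling. Rif1, which restrains origin firing, fell by 1.47, Topbp1, a firing factor, by 1.04 and Top1, a topoisomerase, by 1.01, and Dscc1, a subunit of an alternative clamp loader, rose by 1.05. Of 30 deoxynucleotide supply genes, 3 rose (Cda by 1.12, Ctps2 by 0.65 and Nme1 by 0.40) and none fell. Of 18 E2F factors and partners, 2 rose and 5 fell, including Rb1, a pocket protein, which fell by 0.83, Rbl2, which fell by 0.68, and Ccne2, which rose by 0.73. Kit was at 6.48 and 8.15 TPM in PRC1ctrl and 20.4 and 22.0 TPM in PRC1cKO. Mki67 overlapped, at 7.98 and 8.78 TPM and at 3.69 and 9.06 TPM. The 6 Leydig markers summed to 403 TPM in 1 PRC1ctrl library and 83.2 TPM in the other, and to 20.4 and 73.6 TPM in PRC1cKO, and the 8 spermatid markers to 131 and 145 TPM against 23.8 and 26.0 TPM. Their part in the results was not tested.

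A test of the difference between the label's effect with and without Win18,446 used all 8 PRC1 libraries. No member passed in limma, where 2.77% of 18354 genes passed upward and 5.03% downward, and 8 members had an unadjusted p below 0.05, as did 24.7% of all genes. Untreated and treated libraries also differ in kit, which cannot be told apart from treatment here. In 7 members both PRC1cKO libraries were above both PRC1ctrl libraries untreated and below them under treatment, as in 10.5% of all genes, and Gins4 did the reverse (1.19%). Pola1 had the lowest p of all members (difference -1.31 ± 0.38, adjusted p = 0.086, limma). Orc3 was at 42.0 and 51.2 TPM in PRC1ctrl and 69.7 and 62.0 TPM in PRC1cKO untreated, and at 52.1 and 44.9 TPM and 38.8 and 35.8 TPM under treatment (difference -0.86 ± 0.29, adjusted p = 0.13, limma). Cdc25a differed by -0.97 ± 0.33 (adjusted p = 0.13, limma), Pola2 by -1.44 ± 0.53 (0.16) and Gins2 by -1.48 ± 0.56 (0.165), and Cdc6 by -1.22 (adjusted p = 0.36, limma). Pola2 was at 3.22 and 7.44 TPM in PRC1ctrl and 10.6 and 15.3 TPM in PRC1cKO untreated, and at 32.0 and 39.3 TPM and 27.5 and 32.7 TPM under treatment. Gins2 was at 14.99 and 25.8 TPM and 33.1 and 68.5 TPM untreated, and at 20.5 and 20.9 TPM and 16.7 and 17.9 TPM under treatment. The median of members was -0.69, against -0.41 for all genes, and -0.082 after rescaling, where 4.58% of all genes passed upward and 1.81% downward. Among the related lists, Mtbp and Ticrr, which together load CDC45, passed, with differences of -2.26 (adjusted p = 0.029, limma) and -1.61 (adjusted p = 0.044, limma), and Rbl2 with 2.69 (adjusted p = 0.049, limma). After rescaling Ticrr did not pass (adjusted p = 0.067, limma).

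The fourth comparison set treated PRC1ctrl against untreated WT Aundiff, both TruSeq. Treatment, the strain and the whole PRC1ctrl genotype (Ring1-/-; Rnf2 F/+; Ddx4-Cre) differ together there, as may age, and cannot be told apart. The groups are shared with the WT comparison and with that of the labels under Win18,446. Of the 45 members, 5 were higher and 13 lower, where 33.9% of the 16602 genes tested were higher and 8.6% lower. The median was -0.16 against 0.30 for all genes. After rescaling 3 were higher (20.5%) and 26 lower (18.7%), with a median of -0.48, and the higher share of all calls went from 79.8% to 52.3%. Past 1 on the log2 scale, 1 was higher (16.4%) and 2 lower (3.17%). Both treated libraries were above both WT libraries in 9 members (54.3%) and below them in 23 (19.6%).

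All 4 deoxynucleotide enzymes were lower. Tyms was at 85.0 and 81.5 TPM in WT and 32.1 and 32.2 TPM in treated PRC1ctrl (-1.35 ± 0.11, adjusted p = 0.0018, limma). Tk1 was at 24.6 and 27.7 TPM and then at 9.87 and 10.6 TPM (-1.27 ± 0.15, adjusted p = 0.0032, limma). Rrm2 was at 11.9 and 14.5 TPM and then at 6.42 and 6.69 TPM (-0.90 ± 0.18, adjusted p = 0.011, limma), and Rrm1 fell by 0.57. No member's groups overlapped among these 4. Of the 6 helicase genes, 5 were lower as well, led by Mcm7 at 264 and 294 TPM against 158 and 149 TPM (-0.86 ± 0.11, adjusted p = 0.0035, limma). Mcm2, Mcm3, Mcm5 and Mcm6 fell by 0.45, 0.43, 0.61 and 0.39, and Mcm4 did not pass (-0.15). All 6 passed as lower after rescaling. Lig1 was at 123 and 112 TPM and at 68.4 and 71.1 TPM (-0.74 ± 0.11, adjusted p = 0.0051, limma). Gins1 was at 22.9 and 19.7 TPM and at 14.1 and 11.4 TPM (-0.70 ± 0.17, adjusted p = 0.022, limma), and Rfc2 and Gins4 fell by 0.54 and 0.36. Leaving out 1 library gave -0.43 to -0.28 for Gins4, -0.45 to -0.34 for Mcm6 and -0.85 to -0.56 for Gins1. The ranges were -0.60 to -0.30 for Mcm2, -0.54 to -0.33 for Mcm3 and -0.66 to -0.42 for Rfc2.

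The 5 higher members were Orc4, Orc5, Gins3, Cdc7 and Dbf4. Orc4 was at 24.9 and 16.6 TPM in WT and 42.6 and 54.5 TPM in treated PRC1ctrl (1.20 ± 0.23, adjusted p = 0.0098, limma), and Orc5 at 18.9 and 12.3 TPM and at 29.8 and 29.9 TPM (0.92 ± 0.21, adjusted p = 0.018, limma). Gins3 was at 6.9 and 6.95 TPM and at 13.9 and 13.1 TPM (0.87 ± 0.16, adjusted p = 0.0088, limma). Cdc7 was at 28.5 and 26.1 TPM and at 45.04 and 48.4 TPM (0.75 ± 0.13, adjusted p = 0.0073, limma), and Dbf4 rose by 0.68. By the tests as first fitted, Cdc7 and Dbf4 are thus higher in WT Adiff and in treated PRC1ctrl than in WT Aundiff, and lower in treated PRC1cKO than in treated PRC1ctrl. On the rescaled values Dbf4 passed in none of these comparisons, and Cdc7 did not pass in WT Adiff. Cdc6 (15.6 and 16.3 TPM, 0.06, adjusted p = 0.78, limma) and Cdc25a (25.3 and 24.2 TPM, -0.32, adjusted p = 0.096, limma) did not pass, and Cdc25a passed as lower after rescaling (-0.63, adjusted p = 0.016, limma). Orc5 and Dbf4 lost their calls after rescaling (adjusted p = 0.083 and 0.14, limma).

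Of 38 other replisome and licensing genes 8 were higher and 5 lower, but 5 higher and 20 lower after rescaling. For this list and those below, 33.9% of all genes were higher and 8.6% lower, and 20.5% and 18.7% after rescaling. Rif1 at 1.63, Top1 at 1.62 and Donson at 1.12 were higher, and Dscc1 was lower by 1.11. Of 30 deoxynucleotide supply genes 5 were higher and 4 lower, but 2 higher and 12 lower after rescaling, led by Slc29a1, a nucleoside transporter, at 1.46 and Ctps2 at 1.34. Of the 18 E2F factors and partners 7 were higher and 4 lower, but 1 higher and 5 lower after rescaling. Rb1 was higher by 1.71, at 26.9 and 21.2 TPM in WT and 76.7 and 84.4 TPM in treated PRC1ctrl, and E2f1 lower by 0.69. Mki67 was at 7.02 and 6.73 TPM against 7.98 and 8.78 TPM. Between WT and treated PRC1ctrl the 8 spermatid markers summed to 819 to 895 TPM against 131 to 145 TPM, the 6 Leydig markers to 22.0 to 41.9 TPM against 83.2 to 403 TPM, and the 8 Sertoli markers to 60.4 to 67.1 TPM against 134 to 219 TPM. Their part in the results was not tested.

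The counts of members under the other settings are given with the share of all genes called in the same way. With the spread estimated over all 12 libraries, 16 members were higher in WT Adiff (16.1%) and none lower (11.7%), 11 were higher in untreated PRC1cKO (7.05%) and none lower (8.41%), 1 was higher in treated PRC1cKO (1.67%) and none lower (12.5%), and 2 were higher (22.1%) and 2 lower (3.78%) in treated PRC1ctrl against WT. With no filter on low values, 20 were higher in WT Adiff (7.97%) and none lower (5.52%), 2 were higher in treated PRC1cKO (1.19%) and 1 lower (8.23%), and 2 were higher (10.8%) and 7 lower (2.2%) in treated PRC1ctrl. With GC correction, 27 were higher in WT Adiff (20.9%) and 2 lower (20.9%), 1 was higher in untreated PRC1cKO (0.717%) and none lower (6.39%), and 2 were higher (20.3%) and 31 lower (23.0%) in treated PRC1ctrl. The direction that most calls took was the same under each of these settings in the WT comparison and in treated PRC1ctrl against WT, apart from the equal counts over all 12 libraries.

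**Figure D4:**
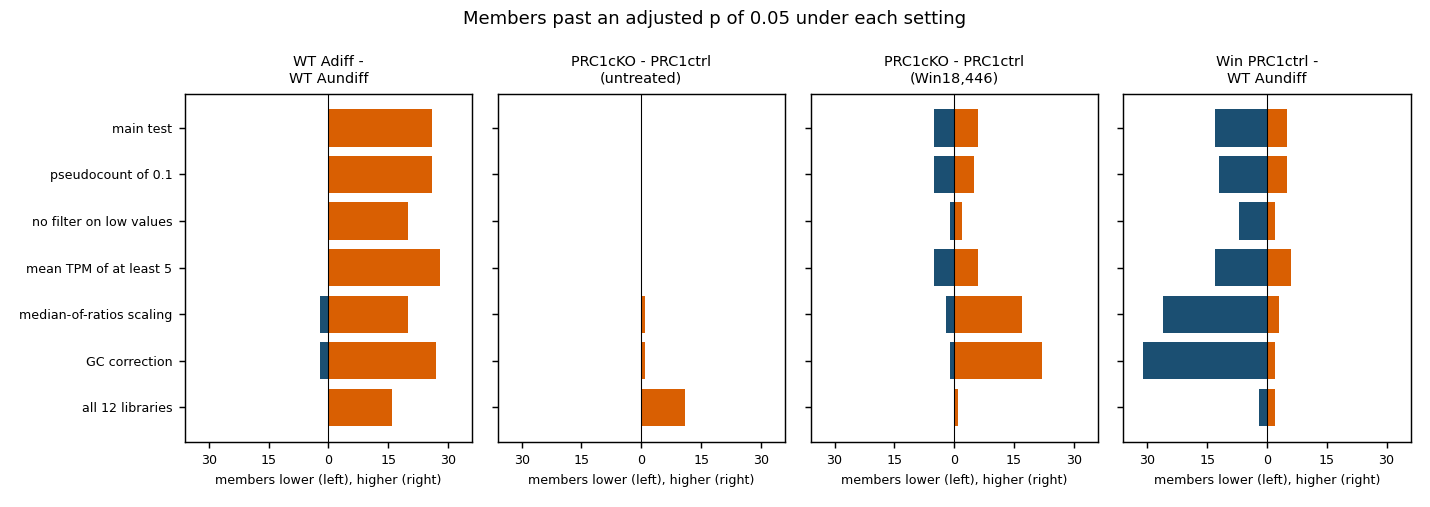
Bars count the members past an adjusted p of 0.05, lower to the left and higher to the right of 0, in 4 comparisons (panels) under 7 settings (rows). In the Win18,446 comparison of labels 6 members were higher with the main test and 22 with GC correction, and in treated PRC1ctrl against WT Aundiff 13 were lower with the main test and 26 after rescaling.

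**Figure D5:**
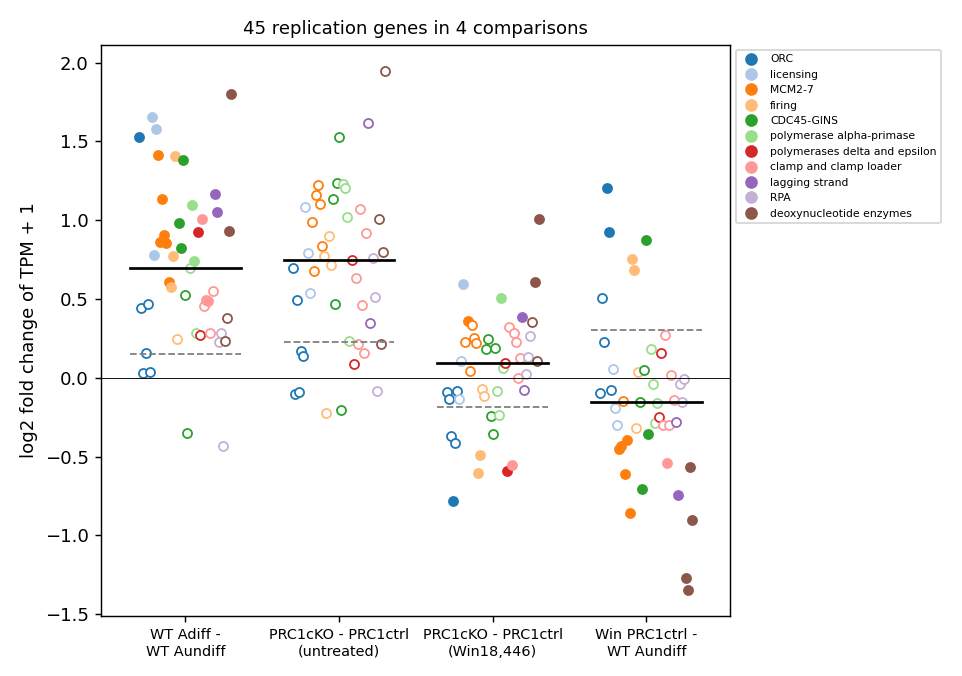
Log2 fold change of TPM + 1 of each of the 45 genes, coloured by role, in 4 comparisons, with filled points past an adjusted p of 0.05. Black lines are the medians of members (0.69, 0.75, 0.10 and -0.16) and dashed grey lines those of all genes tested (0.15, 0.22, -0.19 and 0.30).

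Set side by side, the main test's calls in the 3 TruSeq comparisons sorted the members into several kinds, not all listed here. This is a description, since the comparisons share libraries. Rrm2 and Mcm3 were higher in WT Adiff, higher in treated PRC1cKO and lower in treated PRC1ctrl than in WT Aundiff. Mcm2, Mcm5, Mcm6, Mcm7, Gins1, Rfc2, Lig1 and Rrm1 were higher in Adiff and lower in treated PRC1ctrl, without passing between the labels. Cdc6, Cdc25a, Orc1, Cdt1, Mcm4, Cdc45, Gins2, Pola2, Pold1, Pcna and Rfc3, 11 in all, passed in the WT comparison only. Another 11 passed in none of the 3, Mcm10, Orc2, Orc3, Orc6, Pola1, Prim2, Rfc4, Rfc5, Rpa1, Rpa2 and Rpa3. Tyms and Tk1, lower in treated PRC1ctrl, did not pass in WT Adiff, and Tyms but not Tk1 was higher in treated PRC1cKO. These kinds depend on the scale, and several members change kind after rescaling. For example, Cdt1 then did not pass in WT Adiff, and Rpa3 passed there as lower. Mcm2, Mcm5, Mcm6 and Mcm7 then passed between the treated labels, and Mcm4 and Cdc25a passed as lower in treated PRC1ctrl.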

How the data were processed

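RNA-seq libraries of 6 groups of 2 were used, grouped by their labels. The deposited table holds TPM of 55385 genes (GRCm38/mm10), made by the authors from trimmed reads (Trim Galore 0.6.6) with RSEM 1.3.3. The annotation and strand setting of that run are not given in the sources used here. TPM removes depth, so the reads behind a value are unknown and no counting interval is given. From these values, log2(TPM + 1) was tested with limma 3.58.1 in R 4.3.3 (trended, robust, two-sided), with Benjamini-Hochberg adjustment over all genes at 1 TPM or more in at least 2 of the libraries compared. A gene passed at an adjusted p below 0.05. An exact permutation test of 2 against 2 cannot go below p = 0.333. Alternatives were another pseudocount (0.1), no filter, a mean of at least 5 TPM, median-of-ratios scaling, a fit of all 12 libraries, a replicate block and leaving out each library. A per-library GC correction (lowess, span 0.3) was added after seeing the data. The fits were tested on simulated data.

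The members and the 3 related lists were chosen with earlier results of these data known. Per-library values are given for the 10 passing members with the largest change in a comparison (the 5 with the lowest p where none passed), for Cdc6 and Cdc25a, and for genes a result turns on. Up to 4 passing genes are named per related list. Gene coordinates are the table's and promoters are from RefSeq (GRCm38.p6).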

Additional observations from a re-analysis of the deposited data

How the results depend on the processing

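With a pseudocount of 0.1 or a mean of at least 5 TPM, the counts and medians of members stayed within 1.5 times or within the spread in all 5 comparisons. In WT Adiff against Aundiff, 16 members were higher with all 12 libraries, and 2 were lower with scaling or GC correction, with medians of 0.53 and 0.52. In untreated PRC1cKO, 1 was higher with scaling, 1 with GC correction and 11 with all 12 libraries, with a median of 0.48 after scaling. In treated PRC1cKO, 2 were higher and 1 lower without a filter, 17 and 2 with scaling, 22 and 1 with GC correction, and 1 and 0 with all 12 libraries, with a median of 0.30 after scaling or GC correction. In treated PRC1ctrl against WT, 2 were higher and 7 lower without a filter, 3 and 26 with scaling, 2 and 31 with GC correction, and 2 and 2 with all 12 libraries, with medians of -0.48 and -0.49. The interaction's median was -0.082 after scaling and -0.32 with GC correction. In treated PRC1cKO, Cdc25a went from -0.07 to 0.13 (scaling) and 0.19 (GC correction, with or without the block), and Cdc6 from -0.14 to 0.062 and 0.093. Against WT, Cdc6 in treated PRC1ctrl went from 0.06 to -0.25 and -0.24, and to -0.013 without WT Aundiff replicate 2. The cause was not tested.

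The replicate numbers are not tied to a batch by the labels. Deviations of same-numbered libraries correlated at 0.158, 0.381, 0.122 and 0.0746 in the 4 comparisons, with 2 pairs each. With the replicate block, 30 members were higher and 1 lower in WT Adiff (29.0% and 17.6% of all genes), 20 higher and 0 lower in untreated PRC1cKO (11.2% and 8.82%), 8 and 7 in treated PRC1cKO (7.75% and 31.7%), and 6 and 15 in treated PRC1ctrl against WT (37.5% and 10.7%). With the block and GC correction together, 27 were higher and 2 lower in WT Adiff (22.2% and 21.9%; median 0.52), 11 higher and 0 lower in untreated PRC1cKO (4.2% and 9.7%), 23 and 3 in treated PRC1cKO (19.6% and 21.2%; median 0.30), and 2 and 33 in treated PRC1ctrl (20.0% and 23.9%; median -0.49), and the interaction's median was -0.32.

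Leaving out 1 library at a time gave a median fold change of members of 0.61 to 0.75 in WT Adiff. In untreated PRC1cKO the median ran from 0.37 without PRC1cKO replicate 2 to 1.07 without PRC1ctrl replicate 2. In treated PRC1cKO it ran from 0.0092 to 0.10, and in treated PRC1ctrl against WT from -0.19 to -0.14. The interaction's median ran from -1.02 to -0.36. Calls over all members are not counted here, since such a fit leaves 1 library in a group. The lone library left in a group was assumed to vary like the others. Unknown depth limits what can be said of the lowest members.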

Other observations

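The untreated PRC1ctrl libraries (low-input kit) and the treated PRC1ctrl libraries (TruSeq kit) differed in treatment and kit together, and the members were spread widely between them. On the log2(TPM + 1) scale the difference, untreated minus treated, ran from -3.54 for Cdt1 to 3.13 for Tyms, with a median of -0.07, and 20 of 45 members were above 0. Over the 45 genes it had a Pearson r of -0.51 with the GC content of the longest transcript, which ran from 34.2% to 61.0%. Within groups, the difference of replicate 2 from replicate 1 also went with GC content over the 45 genes, with r of 0.70 in WT Aundiff, 0.60 in treated PRC1cKO and 0.59 in untreated PRC1cKO. These are values of the same few libraries, and genes are not independent replicates.

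The Orc1 to Orc6 ratio of TPM was 0.315 and 0.299 in WT Aundiff and 0.831 and 0.938 in WT Adiff. The Rrm1 to Rrm2 ratio was 14.8 and 14.5 in treated PRC1ctrl and 6.73 and 7.96 in treated PRC1cKO, and the libraries of the 2 labels did not overlap.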
